A study of Mus musculus with 2 samples.

Results

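Distal convoluted tubule cells were examined in single-cell RNA libraries of kidney from 5-week-old mice, 1 library from a wild type kidney and 1 from the mutant labelled Kif3aΔTub, called the knockout here. A barcode was counted as such a cell if it held at least 3 UMIs (unique molecular identifiers, each standing for 1 captured transcript) of Slc12a3, at least as many as of Slc12a1 and more than of Slc34a1. Barcodes first had to hold at least 500 UMIs, at least 200 genes and under 50% mitochondrially encoded UMIs. The cells were thus chosen by their measured counts of these 3 genes. The rule kept 172 wild type and 237 knockout cells, 409 of 11607 barcodes in all. Each cell was then classed by whether it held any UMI of Pvalb.

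Kif3a encodes a motor subunit of kinesin-2, which builds the primary cilium. The Cre driver, the deleted part of the gene, the sex and the number of mice behind each library are not given in the sources used here. The labels name no other allele or treatment in either genotype. With 1 library per genotype, genotype, mouse and library preparation cannot be told apart, no test was possible, and every difference below describes these 2 libraries.

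The distal convoluted tubule is the short nephron segment after the macula densa. Its cells take up sodium chloride through the thiazide-sensitive cotransporter NCC, the product of Slc12a3, and it is the last segment that reabsorbs magnesium, through the channel TRPM6. The early stretch carries the calcium buffer parvalbumin (Pvalb), while the late stretch carries the calcium transport proteins calbindin-D28k (Calb1), calbindin-D9k (S100g), the sodium-calcium exchanger (Slc8a1) and the channel TRPV5, along with the epithelial sodium channel ENaC.

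The chosen cells made up 3.94% of 4371 kept wild type barcodes (95% exact Clopper-Pearson interval 3.38 to 4.55) and 3.28% of 7236 kept knockout barcodes (2.88 to 3.71). Intervals here cover counting error only. The ratio of the shares, 0.832, moved with the mitochondrial limit: it was 1.22 at 25%, 0.62 with no limit and 2.19 among barcodes with 15 to 40% mitochondrial UMIs. A further 132 wild type and 13 knockout barcodes met the gene rule but lay over the 50% limit, and 92 of those 132 held Pvalb. No direction is read from the share.

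The chosen cells held a median of 8845.5 UMIs in wild type (580 to 22611) and 11476 in knockout (711 to 69084), and 1487642 and 3637371 UMIs when summed. Mitochondrially encoded genes took a median of 37.8% of a cell's UMIs in wild type and 13.5% in knockout. A doublet caller marked 5 wild type and 9 knockout cells of the set. The libraries shared 20 barcodes among those deposited and 0 among these cells. Kif3a itself was at 14.1 CPM (UMIs scaled to 1000000 over all UMIs of the cells summed; 95% exact Poisson interval 8.74 to 21.6) in wild type and at 19.2 CPM (15.0 to 24.3) in knockout. The library reads transcript 3′ ends, so UMIs from outside a deleted part would be counted, and Kif3a does not check the label.

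The label was checked against the 3 markers that the rule did not use to choose cells, Pvalb, Trpm6 and Calb1. The 172 wild type cells held 96.3% of all Slc12a3 UMIs of the kept library, which the rule fixed in part, and also 96.2% of Pvalb, 89.0% of Trpm6 and 63.1% of Calb1. In knockout the cells held 96.3% of Slc12a3, 43.9% of Calb1 and 20.4% of Trpm6, and no UMI of Pvalb. The share of Slc12a3 was set by the rule and says nothing of the knockout cells' identity. The other 3 markers go against the label there in part, with Pvalb at 0 and most Trpm6 UMIs outside these cells, so the knockout cells are to be read as cells that met the Slc12a3 rule. At the edge of the rule, the 16 knockout cells with exactly 3 Slc12a3 UMIs had Calb1 at 1966 CPM and S100g at 13138 CPM, and the 24 with exactly 2 had 245 and 4673 CPM. In wild type 5 cells lay just inside and 2 just outside.

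Slc12a3, the rule's own gene, was at 6791 CPM (6659.5 to 6925) in wild type and 1793 CPM (1749.5 to 1837) in knockout, with medians of 61.5 and 21 UMIs per cell. This is given as a description.

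Markers of neighbouring segments were abundant in the cells, and those of other cells were present and moved between the libraries. The 8 connecting tubule markers, which include Calb1 and S100g, summed to 11209 CPM in wild type and 15305 CPM in knockout cells, against 1470 and 3439 CPM over all kept barcodes. The 8 thick ascending limb markers summed to 2124 and 1530 CPM, against 2024 and 1108 CPM over all kept barcodes. The 10 proximal tubule markers summed to 302 CPM in wild type cells and 55.5 CPM in knockout cells, against 9465 and 876 CPM over all kept barcodes. The 8 principal cell markers summed to 92.1 and 724 CPM, against 958 and 5595 CPM over all kept barcodes, and Avpr2, Stc1 and Aqp4 were at 0 in wild type cells. The 12 leukocyte and macrophage markers summed to 54.4 and 208 CPM, against 33.1 and 2040 CPM over all kept barcodes. Among them C1qa, C1qb, C1qc, Cd3e, Cd79a and S100a8 were at 0 in wild type cells, and Cd3e and Cd79a in knockout cells. Markers of type A intercalated cells (90.7 and 210 CPM) and type B intercalated cells (33.6 and 197 CPM) were also higher in knockout, and those of endothelium lower (96.8 and 32.2 CPM). At least 3 principal cell marker UMIs were held by 5 wild type and 102 knockout cells. The numbers were 1 and 21 for leukocyte, 3 and 18 for type A, 2 and 15 for type B and 2 and 6 for endothelial markers. The most in 1 wild type cell were 94, 64, 81, 28 and 100 UMIs in that order, so these wild type sums rest on few cells. Without the cells that held at least 3 Aqp2 UMIs or at least 3 leukocyte marker UMIs, 170 wild type and 206 knockout cells remained. Among these the knockout over wild type log2 ratio was 12.57 for Lcn2, -6.44 for Egf, -0.90 for Calb1, -2.02 for Trpm6 and -2.67 for Kl. Lcn2 and Trpm6 stayed within the counting interval of their values over all cells. Egf, Calb1 and Kl moved out of theirs but kept their direction, and Calb1 fell short of 2-fold. Hsd11b2 moved from 3.84 to 5.09. The part of other cell types' RNA in the remaining differences was not tested.

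The sequences just upstream of 3 genes are shown because these genes define the cells (Slc12a3), their early class (Pvalb) and the early-to-late axis used below (S100g). Each is the stretch of 250 bases before a RefSeq transcript start in GRCm38.p6, written 5′ to 3′ on the gene's strand. Pvalb has another RefSeq start, whose window, chr15:78204238-78204487, is not shown. Capitals mark matches, on either strand, to the core promoter motif TATAAA or to AAGGTCA, a half-site of estrogen-related nuclear receptors.
Pvalb, chr15:78206401-78206650, minus strand: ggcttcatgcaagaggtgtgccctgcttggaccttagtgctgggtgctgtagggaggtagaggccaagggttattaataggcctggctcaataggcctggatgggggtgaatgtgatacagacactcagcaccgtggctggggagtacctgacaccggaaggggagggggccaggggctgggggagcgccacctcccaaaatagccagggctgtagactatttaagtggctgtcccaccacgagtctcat
Slc12a3, chr8:94328958-94329207, plus strand: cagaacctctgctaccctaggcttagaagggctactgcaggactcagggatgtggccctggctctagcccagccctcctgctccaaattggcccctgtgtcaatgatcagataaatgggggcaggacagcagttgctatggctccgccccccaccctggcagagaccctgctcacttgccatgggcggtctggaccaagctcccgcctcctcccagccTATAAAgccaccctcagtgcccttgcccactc
S100g, chrX:162964600-162964849, minus strand: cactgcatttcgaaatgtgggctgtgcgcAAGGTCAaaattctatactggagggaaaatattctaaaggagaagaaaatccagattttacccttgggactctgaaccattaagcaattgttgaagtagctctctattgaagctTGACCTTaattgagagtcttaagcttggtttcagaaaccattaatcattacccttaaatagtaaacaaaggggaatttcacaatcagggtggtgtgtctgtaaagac

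Slc12a3 held 1 TATAAA, from -32 to -27 counted from the start, as did 12.37% of 32851 promoter windows of this length. S100g held AAGGTCA at -221 to -215 and, on the other strand, at -107 to -101, against at least 1 match in 4.079% of windows. Neither motif, nor AGAACA (a half-site of steroid receptors, in 16.08% of windows), matched in the Pvalb window shown or in that of its other start. A match is a description of letters and not a site of binding. In the gene annotation of the same build, Pvalb lies on chromosome 15 from 78191114 to 78206400, Slc12a3 on chromosome 8 from 94329201 to 94366214 and S100g on the X chromosome from 162961992 to 162964599.

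Pvalb, the gene that classed the cells, is given first as a description. In wild type it was found in 135 of 172 cells, 78.5% (71.6 to 84.4), with a median of 6.5 and a maximum of 60 UMIs per cell, 1925 UMIs in all and a level of 1294 CPM (1237 to 1353). In knockout it was found in 0 of 237 cells, which allows a share of cells with a Pvalb UMI of up to 1.27% by the floor of 3 counts and of up to 1.54% by the exact Clopper-Pearson interval. Over the whole deposited matrices, Pvalb had 2736 UMIs in wild type and 0 among 84810251 UMIs in knockout.

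The knockout cells were the deeper ones. At the wild type level they would have held 4707 Pvalb UMIs. Set against a floor of 3 UMIs over the group, Pvalb was at least 1569-fold lower in the knockout cells, and at least 1269-fold lower over all deposited barcodes. After each cell was thinned to 2000 UMIs, leaving out shallower cells, Pvalb remained in 117 of 151 wild type cells, 77.5%.

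The share of cells with a Pvalb UMI was lower elsewhere in the wild type library. Of 2615 proximal tubule cells, which should lack Pvalb, 21 held a UMI (0.803%) at a median depth of 10016 UMIs, as did 5 of 340 thick ascending limb cells (1.47%). Cells with Calb1 that fell short of the Slc12a3 limit held it in 7 of 164 cases (4.27%). Because no knockout cell had Pvalb, the planned comparisons of Pvalb-positive cells between libraries, and of both Pvalb classes within the knockout library, gave no value.

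Within the wild type library, the 135 Pvalb-positive and 37 Pvalb-zero cells differed most in the late distal genes. A gene was counted if it held at least 50 UMIs over both sums (at least 20 for genes of the lists), and called at least 2-fold higher or lower on the log2 ratio of CPM with 0.5 UMIs added to each sum. Of 3054 genes, 139 (4.55%) were at least 2-fold higher in Pvalb-positive cells and 181 (5.93%) at least 2-fold lower, and the median gene stood at -0.10 on the log2 scale. By the trimmed mean of M values, a scaling that centres the bulk of genes, the counts were 344 and 75. The Pvalb-zero cells were shallower, with a median of 3171 UMIs against 9694, and held 4 of the 5 cells marked as doublets. The part of either in what follows was not tested.

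Among 13 counted genes of the late distal list, 8 were at least 2-fold lower in Pvalb-positive cells and 0 higher, with a median of -1.61. S100g was at 1918 CPM in Pvalb-positive and 25006 CPM in Pvalb-zero cells, a log2 ratio of -3.70. Slc8a1, the exchanger that moves calcium out across the basolateral membrane, was at 47.8 CPM (36.7 to 61.1) and 532 CPM (428 to 654). Calb1 was at 2530.03 and 9232 CPM, a log2 ratio of -1.87, so the Pvalb-positive cells held it too. The channel genes Trpv5 (1 and 18 UMIs), Scnn1b (11.4 and 53.2 CPM) and Scnn1g (3.79 and 47.3 CPM), the vitamin D receptor Vdr (110 and 325 CPM) and the parathyroid hormone receptor Pth1r (122 and 497 CPM) were lower in the same cells. Klk1, tissue kallikrein of the connecting tubule, was at 1989 and 12745 CPM; it has close paralogs, so its count is less certain.

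Other genes stood higher in Pvalb-positive cells. Umod, uromodulin, was at 1832 CPM in Pvalb-positive and 177 CPM in Pvalb-zero cells. Its log2 ratio of 3.34 was 1.21 after thinning. The secreted WAP-domain gene Wfdc15b was at 1578 and 189 CPM (3.04), and Egf at 3433 and 1201 CPM (1.51). Prox1, a transcription factor, had 74 UMIs in Pvalb-positive and 2 in Pvalb-zero cells. Several distal genes were at similar levels in both classes: Slc12a3 at 6639 and 7978 CPM, the homeobox gene Emx1 at 280 and 272 CPM, and Lhx1 at 299 and 231 CPM. Trpm6 was at 188 and 112 CPM, but its log2 ratio of 0.71 was -0.17 under a 25% mitochondrial limit, and no direction is given.

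The summed levels of several genes changed over bins of Pvalb in wild type. Such sums do not separate a gradient in each cell from a changing mix of cells. In Pvalb-zero cells S100g per cell had a lower quartile of 0, a median of 4772 and a maximum of 90405 CPM. In Pvalb-positive cells the median was 220 and the maximum 41119 CPM. After thinning to 2000 UMIs, cells with 0, 1 to 2 and 3 to 9 Pvalb UMIs (34, 49 and 65 cells) had S100g at 17471, 2357 and 754 CPM and Klk1 at 9485, 2378 and 1223 CPM. Both genes were thus lower in each bin with more Pvalb. Umod ran the other way, at 676 CPM (495 to 902), 1133 CPM (932 to 1364) and 1777 CPM (1555 to 2021), with neighbouring intervals that did not overlap. Egf was at 1838, 3622 and 3638 CPM, level between the last pair of bins. Only 3 cells had 10 or more Pvalb UMIs, too few to add a point.

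Since Pvalb could not class the knockout cells, S100g was used instead, a cut chosen after the data had been seen. Cells with S100g under 1500 CPM, taken over their own UMIs, were called S100g-low, and those with at least 5000 S100g-high. This gave 122 low, 21 between and 29 high cells in wild type (70.9%, 12.2% and 16.9%), and 174, 13 and 50 in knockout (73.4%, 5.49% and 21.1%). S100g is a continuous measure: within 1.5-fold of the lower and upper cut lay 15 and 13 wild type cells, and 16 and 7 knockout cells. Median depth was 9077.5 and 6492 UMIs in wild type low and high cells, and 10980.5 and 13163 in knockout. The median mitochondrial share of UMIs was 38.6% and 28.8% in wild type low and high cells, and 11.2% and 21.1% in knockout, and its part in the comparisons of the classes was not tested beyond the alternatives given.

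The S100g classes went with Pvalb in wild type. The Pvalb classes of the same cells had already shown this, so what follows is a description and no check on the split. In S100g-high over S100g-low cells of this library, 2.66% of 2711 genes were at least 2-fold higher and 3.17% lower. Besides S100g, which set the classes, Klk1 (3.36), Slc8a1 (3.09) and Calb1 (2.48) stood higher on the log2 scale in S100g-high cells, and Umod lower (-2.14). Pvalb was found in 107 of 122 S100g-low cells (87.7%), 17 of 21 cells between the cuts (81.0%) and 11 of 29 S100g-high cells (37.9%). In bins of S100g UMIs after thinning (0 to 2, 3 to 9, 10 to 39 and at least 40), wild type Pvalb was at 1642, 920, 455 and 76.9 CPM, in 102, 25, 11 and 13 cells. The last pair of bins held under 20 cells each.

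Both libraries held an S100g-high class with the late distal calcium genes, and they parted in the S100g-low class. Pvalb, Trpm6 and Calb1 summed to 3599 CPM in wild type and 86.1 CPM in knockout S100g-low cells. The sums were 10959 and 6891 CPM in S100g-high cells, and 233 and 168 CPM over all kept barcodes. The knockout S100g-low cells thus lay below their own library's level, and the S100g-low classes of both libraries may not hold the same kind of cell. In S100g-low cells, Calb1 was at 1881 CPM (1800.3 to 1964) in wild type and 50.9 CPM (42.7 to 60.2) in knockout, a log2 ratio of -5.20. In S100g-high cells it was at 10516 and 6826 CPM, a log2 ratio of -0.62. Calb1 was found in 108 of 122 wild type and 40 of 174 knockout S100g-low cells (88.5% and 22.99%), and in all 29 and all 50 S100g-high cells. Over the alternatives run, the ratio lay between -6.97 and -4.63 in S100g-low cells and between -1.58 and -0.21 in S100g-high cells, so these ranges did not meet.

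**Figure D1:**
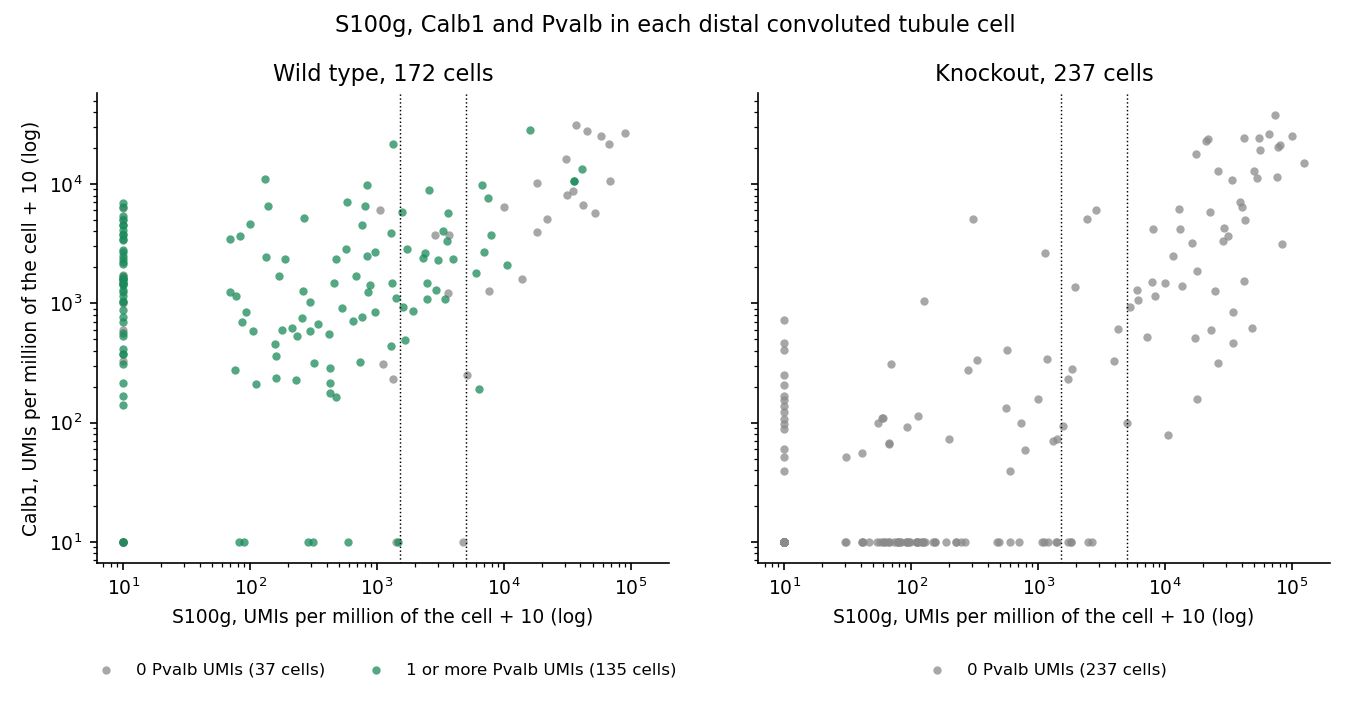
Each point is 1 distal convoluted tubule cell, with S100g on the horizontal and Calb1 on the vertical axis, both as CPM of the cell plus 10 on log axes, wild type left and knockout right. Green points hold at least 1 Pvalb UMI, grey points none, and dotted lines mark the S100g cuts of 1500 and 5000. The wild type cells left of the cuts are mostly green and spread widely in Calb1, with 88.5% holding a UMI, while the knockout cells there lie mostly on the bottom edge, at 0 Calb1 UMIs.

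Bins of S100g UMIs after thinning to 2000 UMIs divided the cells further. Their limits at 3 and 10 UMIs equal the cuts of 1500 and 5000 CPM, so the bins are no separate check on the cuts. Over the bins of 0 to 2, 3 to 9, 10 to 39 and at least 40 S100g UMIs, Calb1 was at 1912, 2180, 6818 and 15154 CPM in wild type. In knockout, in 165, 20, 17 and 32 cells, it was at 75.8, 850.0, 1882 and 11516 CPM. Calb1 was thus lower in knockout in every bin, and the ratio was widest in the bin with the least S100g, while the difference in CPM was widest in the bin of 10 to 39. The middle knockout bins held 20 and 17 cells.

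Slc8a1 and Kl went with Calb1. Slc8a1 was at 44.9 CPM in wild type and 8.23 CPM in knockout S100g-low cells, and at 385 and 219.5 CPM in S100g-high cells. Kl, the membrane protein klotho that serves as co-receptor of FGF23, was at 854 and 43.0 CPM in S100g-low cells, a log2 ratio of -4.31. In S100g-high cells Kl was at 2015 and 679 CPM, a log2 ratio of -1.57. Kl was found in 91.0% of wild type and 39.7% of knockout S100g-low cells, and in 96.6% and 90.0% of S100g-high cells. Within the knockout library, Calb1, Slc8a1 and Kl were higher in S100g-high than in S100g-low cells by 7.06, 4.71 and 3.97 on the log2 scale, where 1.59% of 6865 genes were at least 2-fold higher and 7.4% lower.

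The late distal list was not lower as a whole. Of 17 genes counted over all cells, 8 were at least 2-fold higher in knockout and 2 lower, Calb1 and the potassium channel gene Kcnj1 (503 and 243 CPM), with a median of 0.57 that lay close to that of all 7847 genes, 0.49. Calb1, at -1.07 on the log2 scale, was at -0.90 without the cells that held Aqp2 or leukocyte markers. Over those 7847 genes 20.8% were at least 2-fold higher and 2.77% lower. These shares depend on the scaling: by the trimmed mean of M values 749 genes were higher and 494 lower, against 1630 and 217, and the median gene stood at 0.05. Small positive log2 ratios in the comparison of all cells therefore change sign with the scaling, and ratios nearer to 0 than that shift are given no direction.

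In S100g-high cells, 5 of 16 counted members were at least 2-fold higher in knockout and 0 lower (background 11.4% higher and 2.3% lower of 2392 genes), with a median of 0.20 beside 0.22 for all genes. The ENaC subunits Scnn1b (58.2 and 157 CPM) and Scnn1g (40.3 and 113 CPM) were higher in knockout. In cells with 15 to 40% mitochondrial UMIs in both libraries, the Scnn1g ratio was close to 0. Trpv5 was level at 80.6 and 82.5 CPM, and so was Klk1 at 12679 and 14749.5 CPM. Hsd11b2, the enzyme that keeps cortisol and corticosterone off the mineralocorticoid receptor, was at 23.5 CPM in wild type and 343 CPM in knockout over all cells, a log2 ratio of 3.84. The ratio was 1.15 in the band of 15 to 40% mitochondrial UMIs. Aqp2, the water channel of principal cells, was at 28.2 and 123 CPM over all cells, but at -0.73 on the log2 scale in that band. It was at 2.51 without the cells that held Aqp2 or leukocyte markers, a rule that itself used Aqp2. In wild type, Aqp2 was found in 5 of 172 cells, with 38 UMIs in 1 cell. Hsd11b2 was found in 9 of them, with up to 26 UMIs in 1 cell. The wild type levels of both genes thus rest on few cells. Over all kept barcodes of the knockout library, Hsd11b2 was at 1122 CPM and Aqp2 at 1867 CPM. Both fall among the principal cell markers whose sum is given above, and the part of free RNA was not tested.

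Of the magnesium handling genes Trpm6, Cnnm2 and Egf were at least 2-fold lower. Trpm6, the apical magnesium channel, was at 179 CPM (159 to 202) in wild type and 41.8 CPM (35.4 to 49.0) in knockout, a log2 ratio of -2.10 that lay between -2.55 and -1.98 over the alternatives. It was lower both in S100g-low cells (182 and 35.2 CPM) and in S100g-high cells (170.2 and 64.7 CPM). In the latter the ratio of -1.40 was -0.22 in the band of 15 to 40% mitochondrial UMIs. Cnnm2, a basolateral protein needed for magnesium balance, was at 133 and 40.4 CPM, a log2 ratio of -1.72. The related channel kinase gene Trpm7 was at 692 and 349 CPM, a log2 ratio of -0.99.

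Egf, the precursor of epidermal growth factor that stimulates TRPM6, had the largest ratio downward of the genes named by rule. It was at 3179 CPM (3089 to 3271) in wild type and 26.9 CPM (21.9 to 32.8) in knockout, a log2 ratio of -6.88 that lay between -7.45 and -5.54 over 13 alternatives. It was lower in both S100g classes, at 3601 and 29.2 CPM in S100g-low and at 1393 and 20.3 CPM in S100g-high cells. Egf was found in 96.7% of wild type and 24.1% of knockout S100g-low cells. It was also lower in thick ascending limb cells, at 5576 and 174 CPM, a segment that likewise makes it, so a lower Egf was not particular to the distal convoluted tubule.

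Of 15 counted magnesium genes, 3 were at least 2-fold higher (background 20.8%) and 3 lower (background 2.77%), with a median of -0.03 whose sign changed with the scaling (-0.51 to 0.27 over the alternatives). The 3 higher members were claudins and a regulator: Cldn16 had 0 wild type and 76 knockout UMIs, Cldn19 was at 6.05 and 120.4 CPM, and Arl15 at 2.02 and 33.3 CPM. Cldn16 and Cldn19 form the paracellular pore for magnesium in the thick ascending limb, whose 8 markers summed to 2124 CPM in wild type and 1530 CPM in knockout cells, with Cldn16 and Tmem207 at 0 in wild type. Fxyd2, a subunit of the sodium pump, was level at 13314 and 13045 CPM. Umod was at 1644 and 954 CPM, and its log2 ratio of -0.78 was 0.41 in the band of 15 to 40% mitochondrial UMIs, so no direction is given.

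The kinases and adaptors that control NCC were lower in part. Wnk1, a kinase of the pathway that phosphorylates NCC, whose kidney-specific short form is made in this segment, was at 3991 CPM in wild type and 1041 CPM in knockout, a log2 ratio of -1.94. Counts at the 3′ end do not separate its forms. Klhl3, the adaptor that marks WNK kinases for degradation, was at 403 and 83.9 CPM (-2.26), and Ppp1r1a, protein phosphatase inhibitor 1, at 1414 and 431 CPM (-1.71). Wnk4 was at 256 and 133 CPM (-0.95). The downstream kinase Stk39 (SPAK) was at 132 and 115 CPM, with no direction over the alternatives.

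Most other genes of the NCC list stayed within 2-fold. Nedd4l, a ubiquitin ligase gene, was among the 2 higher, at 23.5 and 50.9 CPM. The basolateral channels Kcnj10 (162 and 96.8 CPM) and Kcnj16 (192 and 255 CPM), and the sodium pump subunit Atp1b1 (4276 and 4731 CPM), were among those within 2-fold. Of 21 genes counted, 2 were at least 2-fold higher (background 20.8%) and 4 lower (background 2.77%), with a median of -0.03 that took either sign over the alternatives (-0.56 to 0.25). The 4 lower members were Kl, Klhl3, Wnk1 and Ppp1r1a. All 4 were lower in both S100g classes as well: Klhl3 at 338 and 72.2 CPM and Wnk1 at 3725 and 724 CPM in S100g-low cells, and Klhl3 at 761 and 123 CPM and Wnk1 at 5097 and 2039 CPM in S100g-high cells.

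**Figure D2:**
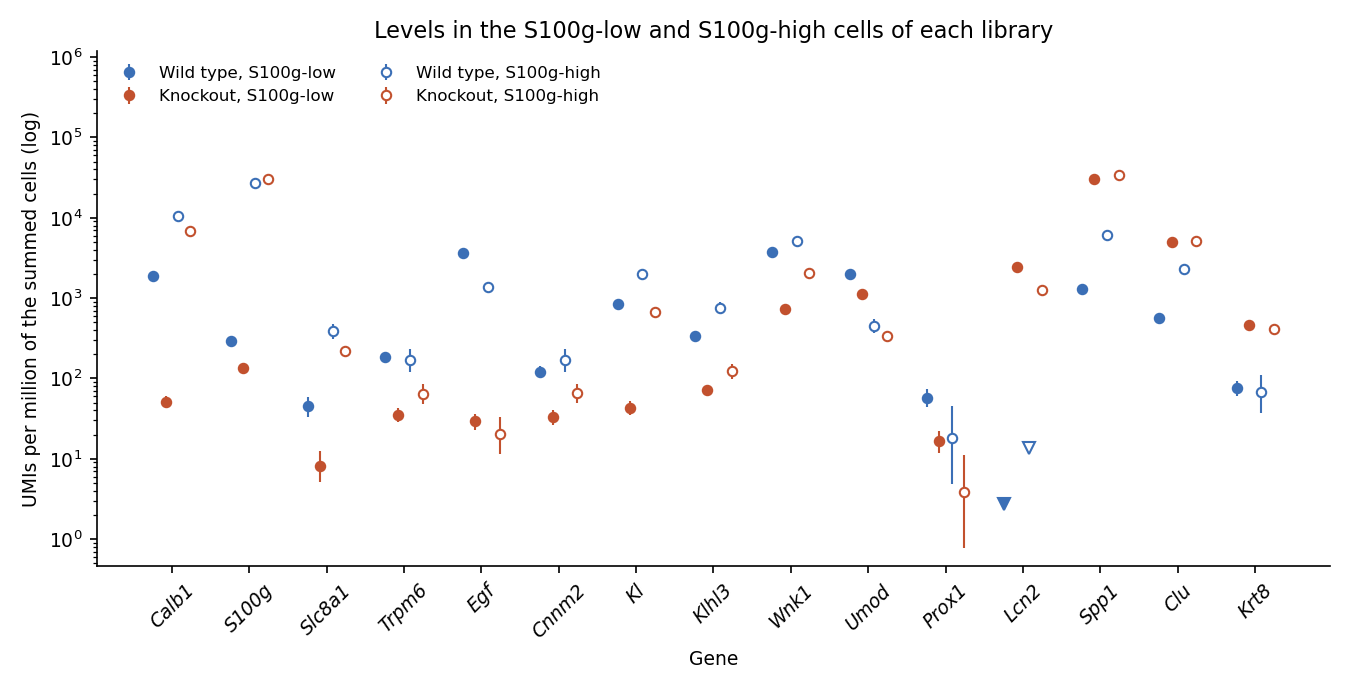
Levels of 15 genes, in CPM of the summed cells on a log axis, in S100g-low (filled) and S100g-high (open) cells of wild type (blue) and knockout (red). Bars are 95% exact Poisson intervals, and downward triangles are groups with 0 UMIs drawn at 3 UMIs. Calb1 in S100g-low cells lies at 1881 and 50.9 CPM, while in S100g-high cells it lies at 10516 and 6826 CPM, and Egf is lower in knockout in both classes.

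Of 21 counted distal transcription factors, 6 were at least 2-fold higher in knockout (background 20.8%) and 5 lower (background 2.77%), with a median of 0.59 near that of all genes. The 5 lower were Emx1 (279 and 125 CPM), Lhx1 (291 and 77.8 CPM), Prox1 (51.1 and 13.7 CPM), and the estrogen-related receptors Esrrb (26.2 and 5.22 CPM) and Esrrg (30.2 and 11.5 CPM). Ppargc1a, the coactivator of those receptors and of mitochondrial genes, was at 245 and 131 CPM (-0.91). Emx1 and Lhx1 stood at 1.82 and 3.20 CPM in knockout thick ascending limb cells, far under their level in the knockout distal convoluted cells.

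The higher members were 6. Ehf, an epithelial factor, had 2.69 CPM in wild type and 67.9 CPM in knockout, Emx2 13.4 and 79.2 CPM, and Tfap2b, a factor of distal convoluted tubule and its neighbours, 87.4 and 211 CPM. Pax2 (12.8 and 43.4 CPM), Pax8 (7.39 and 32.4 CPM) and Hoxb7 (34.3 and 78.6 CPM), genes of the developing nephron and ureteric bud, made up the other 3. Hoxd8 was level at 321 and 320.3 CPM.

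Injury genes were higher in knockout. All 19 counted genes of the tubular injury list were at least 2-fold higher in knockout, with a median of 3.58 (background 20.8%). This was so for 19 of 19 in S100g-low cells (median 3.66; background 25.4% higher and 3.09% lower of 6955 genes) and 17 of 17 in S100g-high cells (median 2.57). The thick ascending limb cells had 20 of 21 (background 19.1% higher and 3.57% lower of 9694 genes), so the list was not particular to these cells. List genes near 0 in wild type could be counted through their knockout UMIs alone, which can raise counts and medians. In the wild type distal convoluted cells alone, 10 injury genes held at least 20 UMIs. For lists described below these numbers were 1 (muscle wasting), 1 (chemokine), 8 (stress), 3 (antigen presentation), 11 (adhesion), 8 (matrix), 4 (p53) and 2 (cell cycle). The background counted genes with at least 50 UMIs.

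Lcn2, lipocalin 2 (NGAL), was at 0 UMIs in the wild type cells and at 2172 CPM (7901 UMIs) in the knockout cells, at least 1077-fold higher. It was found in 151 of 174 S100g-low cells (86.8%) and 35 of 50 S100g-high cells (70.0%) of the knockout. After thinning it was in 63.7% of the knockout cells and 16.3% of knockout proximal tubule cells. Its level over all kept knockout barcodes was 4052 CPM, and 268 CPM in knockout proximal cells. Spp1, osteopontin, was at 2118 and 32367 CPM, a log2 ratio of 3.93, against 16822 CPM over all kept knockout barcodes. Clu, clusterin, was at 851 and 4929 CPM (2.53). The keratins Krt8 (71.9 and 444 CPM), Krt18 (26.2 and 317 CPM), Krt7 (120 and 489 CPM) and Krt19 (1.34 and 57.7 CPM), the injury transcription factors Sox9 (10.8 and 83.3 CPM) and Sox4 (60.5 and 271 CPM), and Cd24a (118 and 545 CPM) were all higher.

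Members with under 20 UMIs over both libraries were not counted. Among them Havcr1 (KIM-1), the proximal tubule injury marker, had 0 and 2 UMIs, and Vcam1 had 0 and 9. The counted member S100a6, at 6.05 and 449.5 CPM, was at 2203 CPM over all kept knockout barcodes, more than 2 times its level here, and expression by these cells is not read from it.

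**Figure D3:**
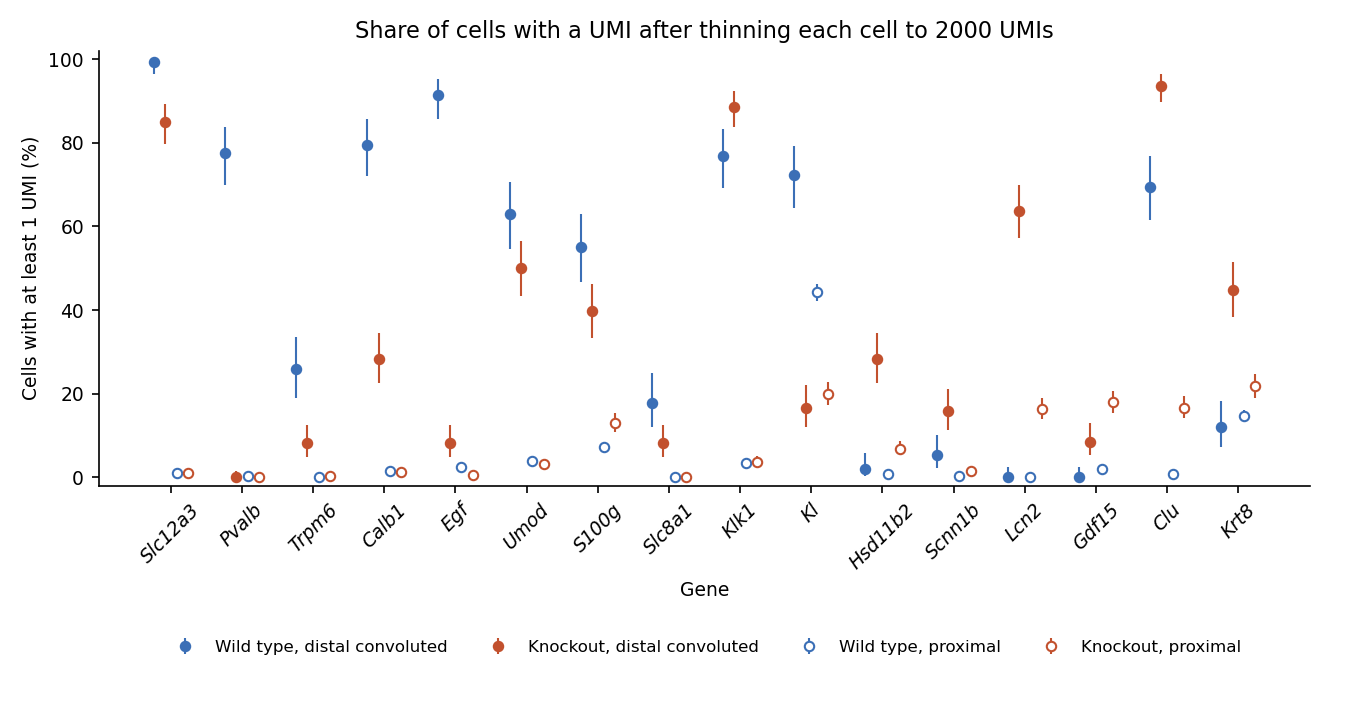
Share of cells with at least 1 UMI of each gene after thinning every cell to 2000 UMIs, with 95% exact Clopper-Pearson intervals. Distal convoluted cells are filled and proximal tubule cells, for comparison, open, with wild type in blue and knockout in red. Egf is found in 91.4% of wild type and 8.12% of knockout distal convoluted cells, Lcn2 in 0% and 63.7%, and Gdf15 in 8.55% of knockout distal convoluted cells, below the 18.0% of knockout proximal cells.

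Secreted factors linked to muscle wasting, the subject of the series' title, were led by the same injury genes. Of 9 counted, 6 were at least 2-fold higher in knockout (background 20.8%) and 0 lower, with a median of 2.02, and 2 of the 9 were Lcn2 and Spp1. Gdf15, a stress hormone that lowers food intake, had 1 wild type UMI and was at 97.3 CPM in knockout, below the 156 CPM of knockout proximal cells and 193 CPM over all kept knockout barcodes. After thinning, 8.55% of the knockout cells held it, against 18.0% of knockout proximal cells. Proximal cells are no clean background for Gdf15: without thinning, 8.80% of them held it in wild type, against 0.581% of wild type distal convoluted cells. The part of free RNA was not tested, and expression of Gdf15 by the knockout cells is not read from these values. Inhba, Mstn and Il6 had 0 UMIs in both libraries' cells.

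Of the chemokine and cytokine list, 7 of 9 counted genes were at least 2-fold higher (background 20.8%) and 0 lower, with a median of 2.74. Cxcl16 was at 5.38 and 69.8 CPM, the fractalkine gene Cx3cl1 at 6.72 and 47.0 CPM, Tnfrsf12a, the receptor of TWEAK, at 11.4 and 67.4 CPM, and Il34, a ligand of the macrophage growth factor receptor, at 0 and 29.1 CPM. Of the immediate early and dissociation stress list, 15 of 20 were higher, against the same background, and 0 lower, with a median of 2.42. Jun was at 27.6 and 237 CPM, Junb at 3.36 and 75.9 CPM and Klf6 at 22.2 and 200.1 CPM. The leukocyte marker sum given above was also higher in knockout. Without the cells that held Aqp2 or leukocyte markers, the median was 3.16 for the chemokine list and 2.38 for the stress list.

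Genes of antigen presentation, adhesion and matrix were higher as well, each read against 20.8%. Antigen presentation had 7 of 12 higher and 0 lower, among them H2-K1 (121 and 293 CPM) and H2-D1 (47.1 and 211 CPM), whose close paralogs make their counts less certain. Its median was 1.30, and 1.38 without the cells that held Aqp2 or leukocyte markers. Adhesion and tight junction genes had 9 of 15 higher and 0 lower, with Cldn3 at 21.5 and 279 CPM, Cldn4 at 8.07 and 108 CPM, Cldn7 at 64.5 and 385 CPM and Epcam at 328 and 857 CPM. The matrix list had 11 of 15 higher and 0 lower. The p53 list had 8 of 12 higher, with the cell cycle inhibitor Cdkn1a at 8.07 and 90.7 CPM.

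The cell cycle list had 11 of 13 higher (background 20.8%) and 1 lower (background 2.77%), with a median of 1.70, but the median was -0.15 in the band of 15 to 40% mitochondrial UMIs. The one lower was Ccnd1 (cyclin D1), at 428 and 148 CPM. Mki67, the proliferation antigen, was low in both, at 5.38 and 17.0 CPM, and no cycling is read from these values.

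Energy metabolism moved less than injury genes. Of 13 mitochondrially encoded genes, 12 were at least 2-fold lower in knockout (background 2.77%) and 0 higher, with a median of -1.35. mt-Co1 was at 72248 and 28334 CPM. The mitochondrial share of UMIs is also a measure of cell quality and entered the filter, so this list is a description. None of 29 counted nuclear genes of oxidative phosphorylation passed 2-fold, and their median was -0.47, beside 0.49 for all genes. With totals without mitochondrial genes, the median of all genes was 0.064, and every ratio shifts downward alike. The list thus lay below the bulk of genes, and the counts past 2-fold in this paragraph hold for the totals used here. Fatty acid oxidation had 0 higher and 2 lower of 22, the acyl-CoA synthetase Acsl1 at 119 and 34.1 CPM and the thiolase Acat1 at 357 and 173 CPM. Glycolysis had 1 higher of 16, Ldha, at 75.3 and 238 CPM. Of 26 counted cilium genes, 2 were higher and 0 lower, with a median of 0.48 beside 0.49 for all genes, and the share higher lay under the background of 20.8%.

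**Figure D4:**
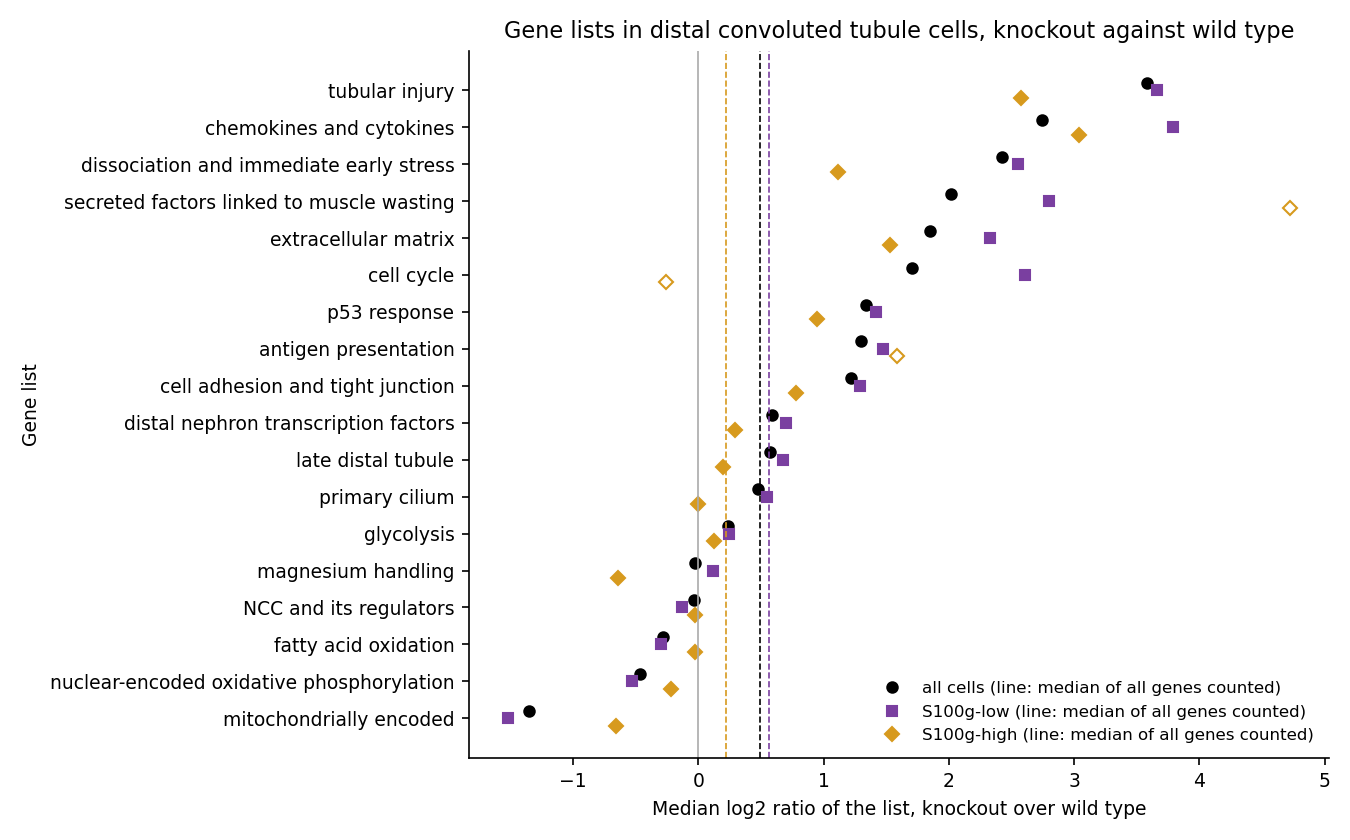
Median log2 ratio, knockout over wild type, of 18 gene lists (vertical axis), for all cells (black circles), S100g-low cells (purple squares) and S100g-high cells (yellow diamonds). Dashed lines mark the median of all genes counted (0.49, 0.57 and 0.22), and open symbols are lists with under 5 genes counted. The injury list lies at 3.58, 3.66 and 2.57, right of every dashed line, while the mitochondrially encoded list lies at -1.35, -1.52 and -0.66.

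The ranking of all genes gave further names. Besides Lcn2, the genes with the highest ratios in knockout were Fgg, the gamma chain of fibrinogen, with 0 wild type UMIs and 130.04 CPM (at least 64.5-fold higher), Samd5 with 0 UMIs and 67.6 CPM (at least 33.5-fold higher), the transcription factor Foxq1 with 1 UMI and 56.9 CPM, and the protease Adamts1 with 1 UMI and 55.0 CPM. They were joined by the membrane protein Emp2 (1.34 and 83.9 CPM), the actin-capping protein Capg (1.34 and 77.0 CPM), Sema3c (2.02 and 91.3 CPM) and Anxa3 (2.69 and 112 CPM). Gdf15, already described, completed them.

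At the low end, besides Egf and Kl, stood 8 genes. Lrrc52, an auxiliary subunit of potassium channels, was at 57.1 CPM in wild type and 2.75 CPM in knockout. The histidine-degrading enzyme Uroc1 was at 119.7 and 7.15 CPM, Wfdc15b at 1420.4 and 108 CPM, the vitamin E carrier Afm at 60.5 and 6.32 CPM, and Gpx6, a glutathione peroxidase, at 196 and 32.4 CPM. Defb1, an antimicrobial beta-defensin of the distal nephron, was at 4692 and 808 CPM, the brain-type creatine kinase Ckb at 405 and 75.3 CPM and lipoprotein lipase Lpl at 389 and 72.3 CPM. In S100g-low cells Lrrc52 was at 61.4 and 0.374 CPM and Defb1 at 4651 and 389 CPM.

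The cells richest in Slc12a3 were compared alone, since a knockout cell can pass the rule with little of it. With at least 10 Slc12a3 UMIs after thinning, 104 wild type and 31 knockout cells remained, with Slc12a3 at 9404 and 6806 CPM. Among them Pvalb was at 1327 and 0 CPM, Egf at 3558 and 48.4 CPM, Kl at 1144 and 323 CPM and Lcn2 at 0 and 2242 CPM. These genes thus differed in the same direction as over all cells. Calb1, at 3139 CPM (2903 to 3390) and 2516 CPM (2137 to 2943), and Trpm6, at 197 CPM (142 to 267) and 113 CPM (45.4 to 233), lay closer together there, and the Trpm6 intervals overlapped.

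When only cells with 0 Pvalb UMIs were set side by side, 37 in wild type and 237 in knockout, 21.8% of 7155 genes were at least 2-fold higher in knockout and 6.05% lower, with the median gene at 0.28. The lowest 10 genes by the ranking rule were Egf, Kl, Slc8a1, Klhl3, Calb1, Sgms2, Vdr, Defb1, Wnk1 and S100g. S100g in this class was at 25006 CPM in wild type and 6753 CPM in knockout, where 174 of the 237 cells were S100g-low, so cells without Pvalb are not of the same make-up in both libraries.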

How the data were processed

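Kidney cells from 1 wild type and 1 Kif3aΔTub mouse library were freed with a cold-active protease, depleted of red and dead cells and captured with a 10x Genomics 3′ kit, per the labels' protocols. The authors deposited whole-number UMI counts per gene and barcode, 1 matrix per library. Cell Ranger version 3.1.0 stands in the file headers and version 3.0.2 in the submitters' processing notes, which also name Seurat 3.1.1 and the mouse build mm10. The deposited matrices held 6938 wild type and 7950 knockout barcodes and 60945147 and 84810251 UMIs. Intronic counting, free RNA removal and strand setting are not given in the sources used here.

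UMIs were summed per library and cell class over 31053 gene rows and divided by the class total (Python 3.11.15, numpy 2.4.6, scipy 1.17.1, pandas 2.3.3; figures with matplotlib 3.10.9). Ratios had 0.5 UMIs added to each sum, with exact conditional intervals for 2 Poisson counts. Doublets were called with Scrublet in scanpy 1.11.5 and kept. The code was tested on simulated data. In each comparison the 10 genes at either end of the ranking by ratio were named, provided that the group with more of a gene had 50 UMIs and 50 CPM of it or more, that the interval did not span 0, and that the CPM reached 0.5 of the value for the library's kept barcodes (a guard against free RNA). Mitochondrial, ribosomal, hemoglobin and unnamed genes and the rule's own genes stayed out of the ranking. Members of the lists and marker lists could be named besides. The cells, markers and gene lists were chosen with earlier results of these data known. The S100g classes, the mitochondrial band, the absent mitochondrial limit, the limit of 10 Slc12a3 UMIs and the set without Aqp2 or leukocyte markers were chosen after the data had been seen. Of 31053 gene identifiers, 30934 (99.6%) matched the annotation. Some list members are counted in the list totals and not reported here.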

Additional observations from a re-analysis of the deposited data

Results flagged for a closer look

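Some genes moved in opposite directions between the libraries in 2 kinds of cell. None of these differences between kinds of cell was tested, since each library is a single sample. There were 6 such genes between the distal convoluted and the thick ascending limb cells, and 1 between the S100g classes.

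Calb1 was lower in the knockout distal convoluted cells, by a log2 ratio of -1.07, but higher in thick ascending limb cells, at 7.77 CPM (26 UMIs) in wild type and 35.3 CPM (233 UMIs) in knockout. Trpm6 had a ratio of -2.10 in the distal convoluted cells and stood at 1.49 and 10.5 CPM in thick ascending limb cells. Emx1 had a ratio of -1.16, and in thick ascending limb cells it had 0 wild type and 12 knockout UMIs. Over all kept barcodes, Pvalb, Trpm6 and Calb1 summed to 233 CPM in wild type and 168 CPM in knockout. The part of free RNA was not tested, and expression of Calb1, Trpm6 or Emx1 by thick ascending limb cells is not read from these values. The beta-defensin gene Defb1 had a ratio of -2.54 in the distal convoluted cells and stood at 528 and 1200 CPM in thick ascending limb cells. Ehd3, listed here among the endothelial markers, had a ratio of -2.06 (31 and 18 UMIs) and stood at 4 and 30 UMIs in thick ascending limb cells. At least 3 UMIs of the 8 endothelial markers were held by only 2 of 172 wild type distal convoluted cells, up to 100 in 1 cell. No wild type S100g-low or S100g-high cell held more than 1. The Ehd3 ratio is therefore not read as a trait of the distal convoluted cells. Ptger3, a prostaglandin receptor gene of the thick ascending limb, had a ratio of 1.81 in the distal convoluted cells (4.71 and 17.6 CPM) and stood at 215 and 61.4 CPM in its own segment.

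Aqp6, a water channel gene of intercalated cells, had a ratio of -3.17 in S100g-low cells, at 34.8 CPM in wild type and 3.74 CPM in knockout. In S100g-high cells it had 0 wild type UMIs and stood at 40.6 CPM in knockout. The 8 type A intercalated markers include Aqp6. At least 3 UMIs of them were held by 2 of 122 wild type S100g-low cells and 5 of 50 knockout S100g-high cells. The most in 1 cell were 81 and 139 UMIs. The part of these few cells in the Aqp6 ratios was not tested.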

How the results depend on the processing

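With 1 library per genotype there was no replicate to leave out. No paired analysis was possible because each genotype had a single library with no replicate number. Depth limited the smaller classes most: the wild type S100g-high class held 29 cells and the Pvalb-zero class 37. Of the values for single genes under the alternatives, 7233 stayed within their counting interval and 1432 moved beyond it. A further 16 were calls of at least 2-fold that changed sign. Changes of sign in smaller ratios were not counted. Of the list medians 1646 moved by under 0.5 and 208 by more, and 4 that had been at least 2-fold changed sign.

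The counts of genes at least 2-fold apart depended on how many genes and cells entered and on the scaling. As reported they were 1630 higher and 217 lower in all cells, 1561 and 433 in Pvalb-zero cells, 139 and 181 in the wild type Pvalb comparison, 1770 and 215 in S100g-low cells and 273 and 55 in S100g-high cells. Over the lists, 115 genes were higher and 29 lower, the share ratio was 0.832 and the Pvalb-positive share 78.5%. The values below are those that moved by over 1.5 times or out of their interval. With a 25% mitochondrial limit there were 554 lower in all cells, 1389 lower in Pvalb-zero cells, 64 higher and 15 lower in the wild type Pvalb comparison, 1166 higher and 603 lower in S100g-low cells and 152 lower in S100g-high cells. The share ratio was 1.22 and the Pvalb-positive share was 68.1%. After thinning to 2000 UMIs there were 315 higher and 61 lower in all cells, 297 higher and 51 lower in Pvalb-zero cells, 18 higher and 13 lower in the wild type Pvalb comparison, 300 higher and 59 lower in S100g-low cells and 32 higher and 10 lower in S100g-high cells. Of the list genes 62 were higher. With totals without mitochondrial genes there were 761 higher and 483 lower in all cells, 766 lower in Pvalb-zero cells, 221 higher and 114 lower in the wild type Pvalb comparison, 791 higher and 494 lower in S100g-low cells and 102 lower in S100g-high cells. On the lists 58 list genes were lower. By the trimmed mean of M values there were 749 higher and 494 lower in all cells, 344 higher and 75 lower in the wild type Pvalb comparison and 756 higher and 516 lower in S100g-low cells. On the lists 58 list genes were lower. By the median of ratios there were 740 higher and 511 lower in all cells, 339 higher and 77 lower in the wild type Pvalb comparison and 750 higher and 527 lower in S100g-low cells. On the lists 60 list genes were lower. With genes of at least 20 UMIs there were 369 lower in all cells, 962 lower in Pvalb-zero cells, 416 higher and 739 lower in the wild type Pvalb comparison, 377 lower in S100g-low cells and 775 higher and 208 lower in S100g-high cells. With genes of at least 1 UMI there were 4005 higher and 1553 lower in all cells, 4686 lower in Pvalb-zero cells, 890 higher and 4282 lower in the wild type Pvalb comparison, 4449 higher and 1476 lower in S100g-low cells and 2010 higher and 1575 lower in S100g-high cells. With genes of at least 200 UMIs there were 648 higher and 80 lower in all cells, 624 higher and 66 lower in Pvalb-zero cells, 27 higher and 17 lower in the wild type Pvalb comparison, 672 higher and 78 lower in S100g-low cells and 64 higher and 16 lower in S100g-high cells. With no mitochondrial limit there were 2625 higher in all cells, 3122 higher and 131 lower in Pvalb-zero cells, 320 higher and 92 lower in the wild type Pvalb comparison, 2727 higher in S100g-low cells and 546 higher in S100g-high cells. The share ratio was 0.62. In the band of 15 to 40% mitochondrial UMIs there were 249 higher and 118 lower in all cells, 350 higher and 148 lower in Pvalb-zero cells, 69 higher and 43 lower in the wild type Pvalb comparison, 190 higher and 93 lower in S100g-low cells and 102 higher and 35 lower in S100g-high cells. The share ratio was 2.19, the Pvalb-positive share was 68.1%, 52 list genes were higher and 19 were lower.

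Calls of at least 2-fold that changed sign were few, and the cause was not tested. In Pvalb-zero cells these were Cp (-0.66) and Khdrbs3 (-0.18) at the 25% limit, Pla2g12a (-0.53) after thinning, Klf2 (-0.70) and Rhob (-0.26) in the band, and Aqp2 (-0.60) without cells holding Aqp2 or leukocyte markers. Over all cells it was Aqp2 (-0.73) in the band, and in S100g-high cells Scnn1g, at -0.0031 in the band. Of S100g-high against S100g-low cells of the knockout they were, in the band, Adamts1 (0.74), Anxa3 (0.24), Cdkn1a (1.09), Emp2 (0.33), Jun (0.84), Lpl (-0.20) and Rhob (0.97), and Aqp2 (-0.18) without cells holding Aqp2 or leukocyte markers. Among list medians, the cell cycle list was at -0.15 in the band over all cells. In the wild type Pvalb comparison the matrix list was at 0.029 at the 25% limit and the wasting list at 0.73 with no limit. The wasting list was at -0.78 with no limit in S100g-high against S100g-low wild type cells.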
